A study of Homo sapiens with 12 samples.

Results

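The NEK kinases are a family of serine/threonine protein kinases named after the fungal mitotic kinase NIMA. In 12 RNA sequencing libraries of the ovarian carcinoma lines SKOV3 and SKOV3/DDP, the genes whose name equals one of these symbols were taken: NEK1, NEK2, NEK3, NEK4, NEK6, NEK7, NEK8, NEK9, NEK10 and NEK11. They are not the whole NEK family. These are 10 of the 46350 named genes in the count tables, and every one passed the filter on low counts in each fit. The labels call SKOV3 sensitive to cisplatin and SKOV3/DDP resistant to it. Each line was sequenced untreated and after paeonol (PAE), a phenolic compound of peony root bark, with 3 libraries in each of the 4 groups. The labels give no PAE dose, no treatment time, no vehicle and no batch, and do not say whether SKOV3/DDP is a single clone. They speak of biological and experimental triplicates without tying these to libraries, so the p-values measure only the spread between these libraries, which may be technical.

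NEK9, NEK6 and NEK7 form a mitotic cascade. PLK1 and CDK1 act on NEK9, which binds and activates NEK6 and NEK7, and these close paralogues phosphorylate the motor protein KIF11 so that spindle poles separate. NEK2 releases the linker that holds centrosomes together before mitosis. NEK1 and NEK8 act at primary cilia, NEK1, NEK4, NEK10 and NEK11 have been tied to the response to DNA damage, and NEK3 acts in prolactin receptor signalling.

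Between 14610008 and 18263479 counts were recorded per library. The untreated SKOV3 libraries stood apart from the other 9: they had a count for 17951 to 18240 genes, against 21469 to 23194 elsewhere, and a gene's deviation from its mean rose with GC content (Spearman's rho 0.656 to 0.662 across 15683 genes of a library), whereas it fell with GC content in the other libraries (−0.525 to −0.322). Results that rest on untreated SKOV3 are therefore set beside a trend-removed value, from a fit in which each library's smooth dependence on GC content and on length was taken out. They are also set beside comparisons between other groups, in whose fit those libraries still took part. All 5 epithelial markers had counts in each group, with a summed level of 4621 to 5228 CPM (counts per 1000000) in untreated SKOV3, 676 to 1344 with PAE, 10644 to 12864 in untreated SKOV3/DDP and 2337 to 3346 with PAE. That sum is carried by KRT8 and KRT18, which fell with PAE in each line, whereas EPCAM (2.32 ± 0.36) and CDH1 (2.82 ± 0.50) rose with PAE in SKOV3 as fitted and KRT19 was not called there. Of 5 ovarian markers, ERBB2, PAX8 and MUC16 had counts in every group, SOX17 was at 0 in all and WT1 at 0 in untreated SKOV3. The summed level of the ovarian markers was 310 to 361 CPM in untreated SKOV3, 61.5 to 114 with PAE, 78.3 to 123 in untreated SKOV3/DDP and 28.7 to 43.2 with PAE. All 3 tested were called lower in untreated SKOV3/DDP (38.5% of all genes). Leukocyte markers summed to 0.526 CPM or less, and COL1A2 of fibroblasts and CDH5 of endothelium were at 0 in all libraries. Of 3 markers each, the fibroblast sum was 6.79 to 14.2 CPM in SKOV3 libraries (COL1A1 and DCN), 3.58 to 4.65 in untreated SKOV3/DDP and 0.220 to 0.564 with PAE, and the endothelial sum (PECAM1 and VWF) was 3.22 to 10.6, 1.33 to 2.19 and 0.343 to 0.658 CPM. Of 6 markers of intestinal epithelium, 5 had no count in untreated SKOV3 (CDX1, CDX2, VIL1, CDH17 and GPA33), and the summed level of the 6 was 0.158 to 0.887 CPM in SKOV3 libraries, treated or not. It was 532 to 576 CPM in untreated SKOV3/DDP and 163 to 249 CPM when PAE was given. All 5 epithelial and all 5 tested intestinal markers were thus called higher in untreated SKOV3/DDP, as NEK6 was (46.1% of all genes). With PAE in both lines, these 5 and 5 were again called higher (27.5% of all genes), and the 3 tested ovarian markers lower (27.1%). With PAE in SKOV3/DDP 4 and 5 of the epithelial and intestinal markers fell, as NEK6 did (14.7% of all genes). No trend-removed value is given for these marker calls. With PAE in SKOV3, where NEK6 fell, 2 epithelial markers fell and 2 rose (32.7% and 42.6% of all genes) and no intestinal one was called. Neither the part of these markers in the results nor the origin of SKOV3/DDP was tested here. The study states that its lines were characterized by short tandem repeat analysis. In bulk libraries, fewer cells of a type and less RNA per cell cannot be told apart.

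NEK6 (gene ID 10783, chr9:124257606-124353307 of GRCh38, plus strand) and NEK7 (gene ID 140609, chr1:198156998-198322420, plus strand) are compared throughout, so their sequences are shown first. Their longest coding sequences in GENCODE 29, of 1044 and 909 bases, were identical at 644 of 909 aligned positions (70.8%). Of the 265 mismatches outside gaps, 182 had G or C in NEK6 and A or T in NEK7, and 34 were the other way round. The most similar stretch of 90 coding bases, which lies in the kinase domain and spans an intron in each gene, shows the pattern base by base. It is shown with the 16 mismatched bases in capitals, from coding base 722 of NEK6 (within chr9:124327443-124339657) and coding base 587 of NEK7 (within chr1:198279059-198293031), 5′ to 3′.
NEK6: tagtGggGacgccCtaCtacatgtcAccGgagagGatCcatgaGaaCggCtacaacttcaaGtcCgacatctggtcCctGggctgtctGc
NEK7: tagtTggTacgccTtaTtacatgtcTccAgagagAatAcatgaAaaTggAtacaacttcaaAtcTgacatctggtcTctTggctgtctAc
All 16 mismatches lie at the third position of a codon, and 15 of them have G or C in NEK6 and A or T in NEK7. The GC content of the stretch was 56.7% in NEK6 and 40.0% in NEK7. Over the longest transcript, NEK6 had 51.9% GC and NEK7, the lowest of the members, 35.7%, so the trend of the untreated SKOV3 libraries bears on this pair unequally. The longest run of identical bases between these coding sequences was 14 bases, and between any pair of members 18 bases.

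NEK6 was the member with the same answer in every comparison it entered: higher in SKOV3/DDP than in SKOV3 and lower with PAE in each line. Its level was 18.2, 18.6 and 16.8 CPM in the untreated SKOV3 libraries and 156, 122 and 141 CPM in untreated SKOV3/DDP. With PAE it was 5.52, 5.23 and 3.05 CPM for SKOV3, against 38.6, 32.9 and 48.5 CPM for SKOV3/DDP. All 4 groups were separate: untreated SKOV3/DDP was highest, SKOV3/DDP with PAE next, untreated SKOV3 below it and SKOV3 with PAE lowest. CPM are given after TMM scaling (the trimmed mean of M values, which corrects library sizes for composition). The test throughout is the quasi-likelihood test of edgeR, with p adjusted after Benjamini and Hochberg over all genes tested.

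Without treatment, NEK6 was higher in SKOV3/DDP by 2.91 ± 0.18 (SE) on the log2 scale (adjusted p = 2.1e-06), and the trend-removed value was 3.20. The study picked NEK6 partly because it differed between these untreated lines in its sequencing data. This call is therefore no independent support for that choice. With PAE in both lines, NEK6 was 8.68-fold higher in SKOV3/DDP (log2 fold change 3.12 ± 0.25, adjusted p = 1.1e-07). This comparison does not use the untreated SKOV3 levels, though those libraries took part in its fit. In a fit of the 6 libraries with PAE alone, the log2 fold change was 3.05. The difference between the lines in NEK6 was thus larger than the spread between libraries whether or not PAE was present.

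PAE lowered NEK6 3.88-fold in SKOV3 (log2 fold change −1.96 ± 0.25, adjusted p = 3.5e-06, trend-removed −1.77) and 3.50-fold in SKOV3/DDP (−1.81 ± 0.24, adjusted p = 0.000179, trend-removed −1.78). The difference between these effects was 0.15 on the log2 scale (SE 0.33, 95% confidence interval −0.55 to 0.85, adjusted p = 0.729). It did not pass the test, and the interval leaves room for a difference between the lines in either direction. Its sign was negative when libraries were scaled by library size only (−0.57, adjusted p = 0.151). Scaled that way, the effect of PAE on NEK6 was −1.08 in SKOV3 and −1.65 in SKOV3/DDP.

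NEK7, the paralogue of NEK6 that also binds the inflammasome protein NLRP3, went the opposite way with PAE. Its level was 11.4, 6.39 and 8.81 CPM in untreated SKOV3 and 226, 144 and 223 CPM in SKOV3 with PAE. It was 44.9, 35.0 and 38.3 CPM in untreated SKOV3/DDP and 85.7, 100.3 and 163 CPM in SKOV3/DDP with PAE. In each line every treated library lay above every untreated one. Untreated SKOV3 was lowest, untreated SKOV3/DDP came next, and the groups given PAE lay above both and overlapped each other.

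PAE raised NEK7 2.95-fold in SKOV3/DDP (log2 fold change 1.56 ± 0.28, adjusted p = 0.00138, trend-removed 1.24). In SKOV3 the log2 fold change was 4.48 ± 0.32 (adjusted p = 1.9e-08), and the trend-removed value was 1.18 (adjusted p = 0.000194). NEK7 therefore rose with PAE in each line by every one of these fits, while the size of its rise in SKOV3 depended on the untreated SKOV3 libraries. The difference between the lines in this effect was −2.91 as fitted (adjusted p = 1.7e-05) and 0.061 trend-removed (adjusted p = 0.896).

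Between the untreated lines NEK7 was higher in SKOV3/DDP as fitted, by 2.09 ± 0.26 on the log2 scale (adjusted p = 8.5e-05), and lower trend-removed, by −0.91 (adjusted p = 0.00384). With PAE in both lines it was lower in SKOV3/DDP by −0.77 ± 0.28 (adjusted p = 0.0289, trend-removed −0.84). This last call was lost on leaving out replicate 1 or 3 of SKOV3 with PAE or replicate 1 or 2 of SKOV3/DDP with PAE, with the adjusted p rising to between 0.0793 and 0.122.

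NEK9 (gene ID 91754, chr14:75079353-75127637, minus strand), the kinase upstream of this pair, did not move with PAE in SKOV3/DDP by the test. It was at 147, 124 and 129 CPM in untreated SKOV3/DDP and 96.7, 110 and 133 CPM with PAE, and at 45.1, 27.5 and 27.9 CPM in untreated SKOV3 and 75.3, 103 and 84.2 CPM with PAE. The SKOV3/DDP groups overlapped, whereas untreated SKOV3 lay below the other 3 groups. Its log2 fold change with PAE was −0.23 ± 0.23 in SKOV3/DDP (adjusted p = 0.488, 95% confidence interval −0.72 to 0.26). In SKOV3 it was 1.38 ± 0.23 as fitted (adjusted p = 6.9e-05) and −0.094 trend-removed (adjusted p = 0.676). Between the untreated lines NEK9 was higher in SKOV3/DDP (1.93 ± 0.23, adjusted p = 6.9e-05, trend-removed 0.50 with adjusted p = 0.0287), and with PAE in both lines the difference was 0.38 ± 0.23 (adjusted p = 0.180). ZC2HC1C overlaps NEK9 on the opposite strand and held 479 counts over all libraries, against 19429 of NEK9.

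**Figure D1:**
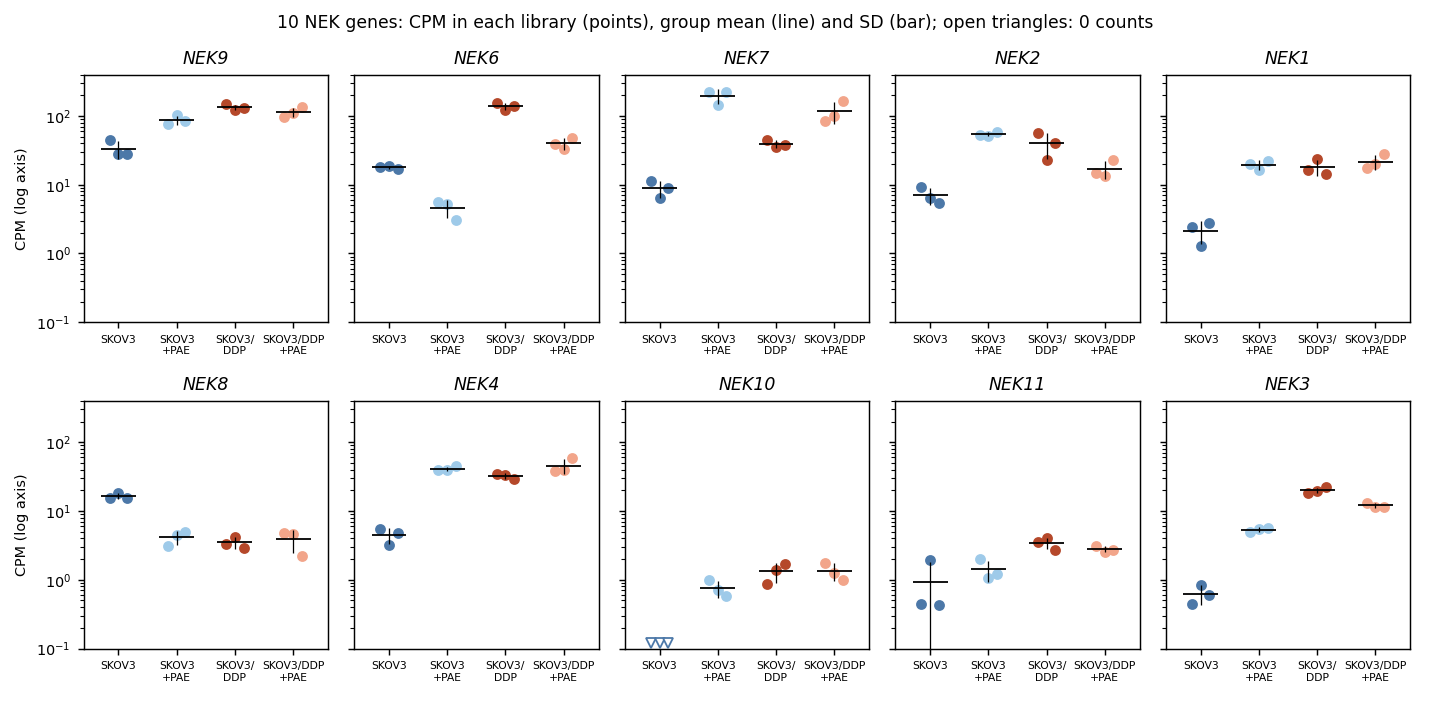
Level of each of the 10 NEK genes in CPM (log axis) in the 3 libraries of each group (points), with the group mean (line) and SD (bar). NEK6 fell with PAE in each line while NEK7 rose, and open triangles mark NEK10, which had 0 counts in untreated SKOV3.

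A ratio of counts within a library does not depend on scaling between libraries, so NEK6 and NEK9 were also set against NEK7 in each library, as log2 of the count plus 0.5 of each. The log2 ratio of NEK6 to NEK7 was 0.67, 1.53 and 0.93 in untreated SKOV3 and 1.79, 1.80 and 1.88 in untreated SKOV3/DDP, so NEK6 had more counts in each of these 6 libraries. With PAE it was −5.35, −4.78 and −6.18 for SKOV3, and it was −1.15, −1.61 and −1.75 for SKOV3/DDP, so NEK7 had more counts in each of these 6. The balance of the pair crossed over with PAE in both lines.

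The mean log2 ratio of NEK6 to NEK7 changed with PAE by −6.48 in SKOV3 (SE 0.48) and by −3.33 in SKOV3/DDP (SE 0.18), and was higher in SKOV3/DDP by 0.79 untreated (SE 0.26) and 3.93 with PAE (SE 0.44). No libraries overlapped in any of these 4 comparisons. In a 2-sided exact permutation test each had p = 0.1 (0.1 adjusted over the 4), the smallest that 3 libraries against 3 allow, so 0.05 could not be reached. Trend-removed, the ratio changed with PAE by −2.96 in SKOV3 and −3.01 in SKOV3/DDP, and the difference between the untreated lines was 4.03 in place of 0.79.

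The ratio of NEK9 to NEK7 separated untreated from treated libraries as well. Its mean log2 value was 1.91 ± 0.23 (SD, n = 3) in untreated SKOV3 and −1.16 ± 0.59 after PAE, and 1.76 ± 0.06 in untreated SKOV3/DDP and 0.0062 ± 0.26 after PAE. PAE changed it by −3.07 in SKOV3 and −1.75 in SKOV3/DDP (exact permutation p = 0.1 for each, 0.133 adjusted over the 4 comparisons), and trend-removed by −1.27 and −1.48. Between the untreated lines it differed by −0.15 (exact permutation p = 0.4), and this difference was 1.34 trend-removed.

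**Figure D2:**
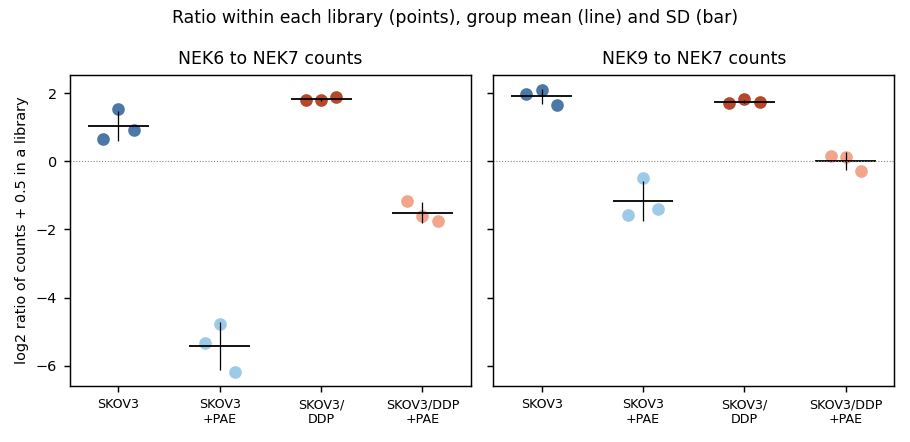
Log2 ratio of NEK6 to NEK7 counts (left) and of NEK9 to NEK7 counts (right) in each library (points), with the mean (line) and SD (bar) of 3 libraries a group. The NEK6 to NEK7 ratio lies above 0 in all 6 untreated libraries and below 0 in all 6 libraries with PAE.

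Read per length, the make-up of the 10 genes differed in each group. Counts were divided by the exon length given in the count tables and expressed as the share of the 10 members' sum. In untreated SKOV3/DDP NEK6 held 38.9% ± 0.6 (SD, n = 3), above NEK9 at 18.8% ± 0.95 and NEK2 at 14.8% ± 4.5, whose ranges overlapped (16.1% and 18.4% per kb of the longest transcript). In SKOV3/DDP with PAE the order was NEK7 at 30.7% ± 4.2, NEK9 at 21.6% ± 1.6 and NEK6 at 15.0% ± 1.5, each range separate from the next. NEK6 thus went from the leading place to the place after NEK7 and NEK9.

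In untreated SKOV3, NEK8 held 27.3% ± 4.4, NEK6 23.4% ± 2.1 and NEK9 21.8% ± 4.0, and neighbours in this order overlapped; per kb of the longest transcript NEK6 led with 24.0% and NEK8 had 22.6%. Given PAE, SKOV3 had another order: NEK7 held 45.1% ± 6.6, NEK2 23.9% ± 1.5 and NEK9 14.4% ± 3.9, each separate from the next, while NEK6 held 0.903% to 1.90%. NEK10 and NEK11 stayed at 0.855% or less in every group mean. The summed level of the 10 genes was 92.1 ± 14.1 CPM in untreated SKOV3 and 374 to 431 CPM as a mean of the other groups. These shares carry no correction for GC content (57.9% for NEK8, the highest of the members), and its part in the shares of untreated SKOV3 was not tested.

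**Figure D3:**
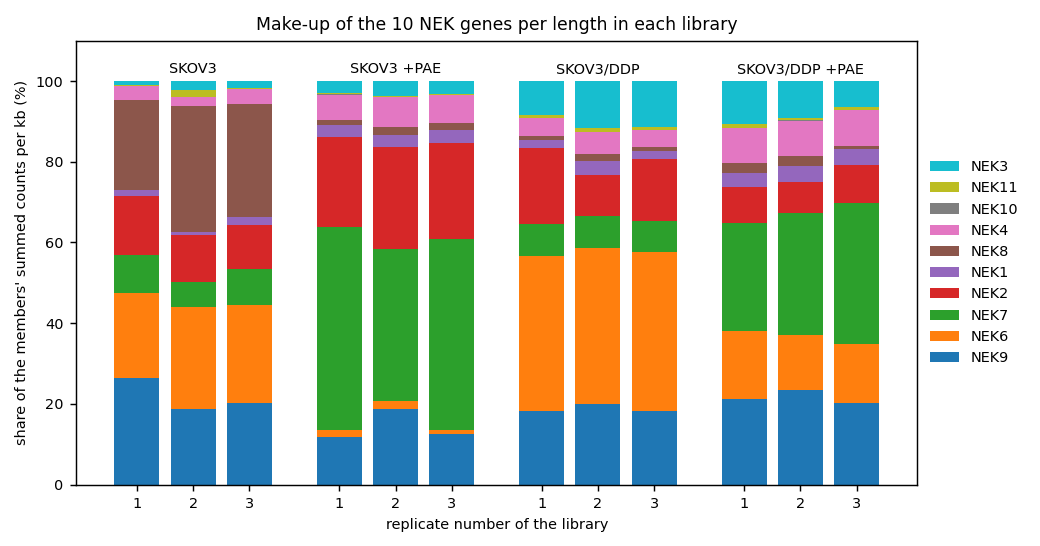
Share of each NEK gene in the members' summed counts per kb of exon length (%), in each of the 12 libraries. NEK6 (orange) leads in untreated SKOV3/DDP and NEK7 (green) in both groups with PAE.

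NEK2 (gene ID 4751, chr1:211658256-211675625, minus strand), the centrosome linker kinase, fell with PAE in SKOV3/DDP. It was at 56.9, 23.2 and 40.8 CPM untreated and at 15.0, 13.4 and 22.6 CPM with PAE, and in SKOV3 at 9.31, 6.39 and 5.51 CPM untreated and 53.2, 51.3 and 59.1 CPM with PAE. The SKOV3/DDP groups stood just apart, the lowest untreated library beside the highest one with PAE. The log2 fold change in SKOV3/DDP was −1.24 ± 0.31 (adjusted p = 0.0094, trend-removed −1.35), and without replicate 1 of untreated SKOV3/DDP it was −0.88 (adjusted p = 0.0676). In SKOV3 it was 2.95 ± 0.33 as fitted (adjusted p = 1.0e-06) and 0.64 trend-removed (adjusted p = 0.0890).

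The PAE effect on NEK2 differed between the lines by −4.19 (adjusted p = 1.8e-06), and by −1.99 trend-removed (adjusted p = 0.00172). With PAE in both lines, NEK2 was lower in SKOV3/DDP by −1.68 ± 0.31 (adjusted p = 0.000355, trend-removed −1.57), with no overlap of libraries. Untreated, it was higher in SKOV3/DDP by 2.45 ± 0.37 as fitted (adjusted p = 0.000279) and 0.46 trend-removed (adjusted p = 0.264).

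The promoter of NEK2 is shown because several mitotic genes fell together with it in SKOV3/DDP, as given with the partner genes, and promoters of mitotic genes are known for the CCAAT box. The 120 bases before the RefSeq start of NEK2 (GRCh38.p14, chr1:211675622-211675741, minus strand, written 5′ to 3′ along the gene) hold it at 66 and 34 bases before the start, in capitals.
NEK2 promoter: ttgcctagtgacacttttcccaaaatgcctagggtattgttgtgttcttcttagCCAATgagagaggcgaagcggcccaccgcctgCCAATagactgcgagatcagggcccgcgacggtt
The letters CCAAT were searched on both strands of windows of 300 bases that cover each start and the bases before it. Of 35116 RefSeq windows, 34.6% held at least 1 match and 10.8% held as many as NEK2. Among the genes that fell with NEK2, CDK1 had a window with 2 matches, and KIF11 and PLK1 each had 1. Partner genes that were not called there held the letters too: BICD2, DYNLL1 and HSPA8 had 2 matches and TUBG1 had 1. Of the other members with a window, NEK10 had 3, NEK6 had 2, NEK11 had 1 and the rest had none. A match is a description of these letters, not evidence of binding.

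NEK1 (gene ID 4750, chr4:169392809-169612629, minus strand) and NEK8 (gene ID 284086, chr17:28728788-28743455, plus strand), the kinases of cilia, moved in opposite directions wherever untreated SKOV3 was involved and neither was called elsewhere. NEK1 was at 1.28 to 2.80 CPM in untreated SKOV3 and at 14.4 to 27.7 CPM across the other 9 libraries. NEK8 was at 15.5 to 18.4 CPM in untreated SKOV3 and at 2.20 to 5.00 CPM across the other 9. For each gene the untreated SKOV3 libraries lay apart from all others, and the other 3 groups overlapped.

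NEK1 rose with PAE in SKOV3 by 3.18 ± 0.34 (adjusted p = 5.4e-07), and its trend-removed value was −0.0047 (adjusted p = 1). NEK8 fell with PAE in SKOV3 by −1.98 ± 0.34 (adjusted p = 6.9e-05), and its trend-removed value was −0.25 (adjusted p = 0.532). In SKOV3/DDP the effect of PAE was 0.26 ± 0.29 for NEK1 (adjusted p = 0.559) and 0.16 ± 0.33 for NEK8 (adjusted p = 0.783). Between the untreated lines the log2 fold change was 3.01 ± 0.36 for NEK1 (adjusted p = 7.1e-05, trend-removed 0.03) and −2.31 ± 0.26 for NEK8 (adjusted p = 4.7e-05, trend-removed −0.65 with adjusted p = 0.0389).

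NEK3 (gene ID 4752, chr13:52132647-52159597, minus strand) was higher in SKOV3/DDP than in SKOV3 with and without PAE, as NEK6 was. It was at 0.443, 0.852 and 0.593 CPM in untreated SKOV3 and 18.5, 19.6 and 22.0 CPM in untreated SKOV3/DDP, and at 4.94, 5.43 and 5.74 CPM and 13.0, 11.5 and 11.6 CPM in these lines with PAE. No groups overlapped. Its log2 fold change between the lines was 4.90 ± 0.32 untreated (adjusted p = 2.7e-06, trend-removed 3.08) and 1.16 ± 0.25 with PAE (adjusted p = 0.00116, trend-removed 1.34).

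The PAE effect on NEK3 was 3.07 ± 0.31 in SKOV3 (adjusted p = 3.0e-07, trend-removed 0.90 with adjusted p = 0.0331) and −0.73 ± 0.25 in SKOV3/DDP (adjusted p = 0.0387, trend-removed −0.83). The call in SKOV3/DDP was lost on leaving out any of the 6 libraries of that line (−0.76 to −0.63). The difference of these effects between the lines was −3.81 (adjusted p = 1.3e-06) and −1.73 trend-removed (adjusted p = 0.00417).

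NEK4 (gene ID 6787, chr3:52708444-52770946, minus strand), a kinase of the DNA damage response and of replicative senescence, was at 3.15 to 5.50 CPM in untreated SKOV3 and 28.95 to 58.3 CPM across the other 9 libraries. Its log2 fold change was 2.79 ± 0.26 between the untreated lines (adjusted p = 1.7e-05, trend-removed 0.47 with adjusted p = 0.0517) and 3.20 ± 0.26 with PAE in SKOV3 (adjusted p = 4.4e-08, trend-removed 0.77 with adjusted p = 0.00142). It was 0.49 ± 0.23 with PAE in SKOV3/DDP (adjusted p = 0.134). Counts of NEK4 are uncertain: SPCS1 overlaps it on the opposite strand and held 13390 counts over all libraries against 6751 of NEK4, and the strand of counting is not given in the sources used here.

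NEK10 (gene ID 152110, chr3:27107336-27369460, minus strand) and NEK11 (gene ID 79858, chr3:131026851-131350465, plus strand), which act in the checkpoint after DNA damage, were the faintest of the 10 members. NEK10 had 0 counts in all 3 untreated SKOV3 libraries, and had 42 counts over the libraries of SKOV3 with PAE, 65 over untreated SKOV3/DDP and 81 over SKOV3/DDP with PAE. Set against 3 counts over the untreated SKOV3 group, the limit that a count of 0 allows, NEK10 was at least 15.3-fold higher in untreated SKOV3/DDP and at least 8.81-fold higher in SKOV3 with PAE, which covers counting error only. In SKOV3/DDP the PAE effect on NEK10 was 0.02 ± 0.47 (adjusted p = 0.999).

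NEK11 was at 0.443, 1.96 and 0.424 CPM in untreated SKOV3, where replicate 2 stood apart, and at 1.98, 1.07 and 1.21 CPM with PAE. It was higher in untreated SKOV3/DDP (2.75 to 4.04 CPM) than in untreated SKOV3 by 1.79 ± 0.59 on the log2 scale (adjusted p = 0.0190, trend-removed −0.47 with adjusted p = 0.561). That call was lost without replicate 1 or replicate 3 of untreated SKOV3 (1.45 and 1.43, adjusted p = 0.0551 and 0.0657). The PAE effect on NEK11 in SKOV3 was 0.58 ± 0.53 (adjusted p = 0.338), and without replicate 2 of untreated SKOV3 it was 1.69 (adjusted p = 0.00877). Trend-removed, it was −1.85 and called lower (adjusted p = 0.0253), so its direction depended on the fit.

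Counted over the 10 genes, 9 members were higher and 1 (NEK8) was lower in SKOV3/DDP when the untreated lines were compared. Of all 15323 genes tested there, 46.1% were called higher and 38.5% lower. The members had a median log2 fold change of 2.62 and all genes tested one of 0.41. Trend-removed, 4 members were higher (NEK9, NEK6, NEK3 and NEK10) and 2 lower (NEK7 and NEK8), against 37.0% and 32.6% of all genes, so the excess of higher calls was not seen in that fit. NEK10 counts among the higher members in both fits. With 0 counts in every untreated SKOV3 library, it passed the filter through SKOV3/DDP alone and could only be called higher.

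With PAE in SKOV3, 7 members rose, 2 fell (NEK6 and NEK8) and 1 (NEK11) was not called, against 42.6% of 17133 genes called higher and 32.7% lower. The members' median was 3.01 and that of all genes tested 0.48. Trend-removed, 4 members rose (NEK7, NEK4, NEK10 and NEK3) and 2 fell (NEK6 and NEK11), against 28.4% and 21.7% of all genes. In both fits NEK10 is among those that rose, and against a group with 0 counts it could only be called higher.

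With PAE in SKOV3/DDP, 1 member rose (NEK7), 3 fell (NEK6, NEK2 and NEK3) and 6 were not called, against 11.8% of all genes called higher and 14.7% lower. The members' median was −0.10 and that of all genes tested 0. Trend-removed, the counts were again 1 and 3, against 15.4% and 16.5% of all genes.

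The PAE effect differed between the lines for 8 members, being higher in SKOV3/DDP for 1 (NEK8) and lower for 7, against 25.5% and 37.4% of all genes. These counts were 0 and 3 (NEK2, NEK10 and NEK3) trend-removed, against 18.9% and 22.8% of all genes. NEK10 is among the lower ones in both fits, and its value rests on a group with 0 counts. With PAE in both lines, 2 members were higher in SKOV3/DDP (NEK6 and NEK3), 2 were lower (NEK7 and NEK2) and 6 were not called, against 27.5% and 27.1% of all genes. Trend-removed, these counts were again 2 and 2, against 30.3% and 28.8% of all genes.

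**Figure D4:**
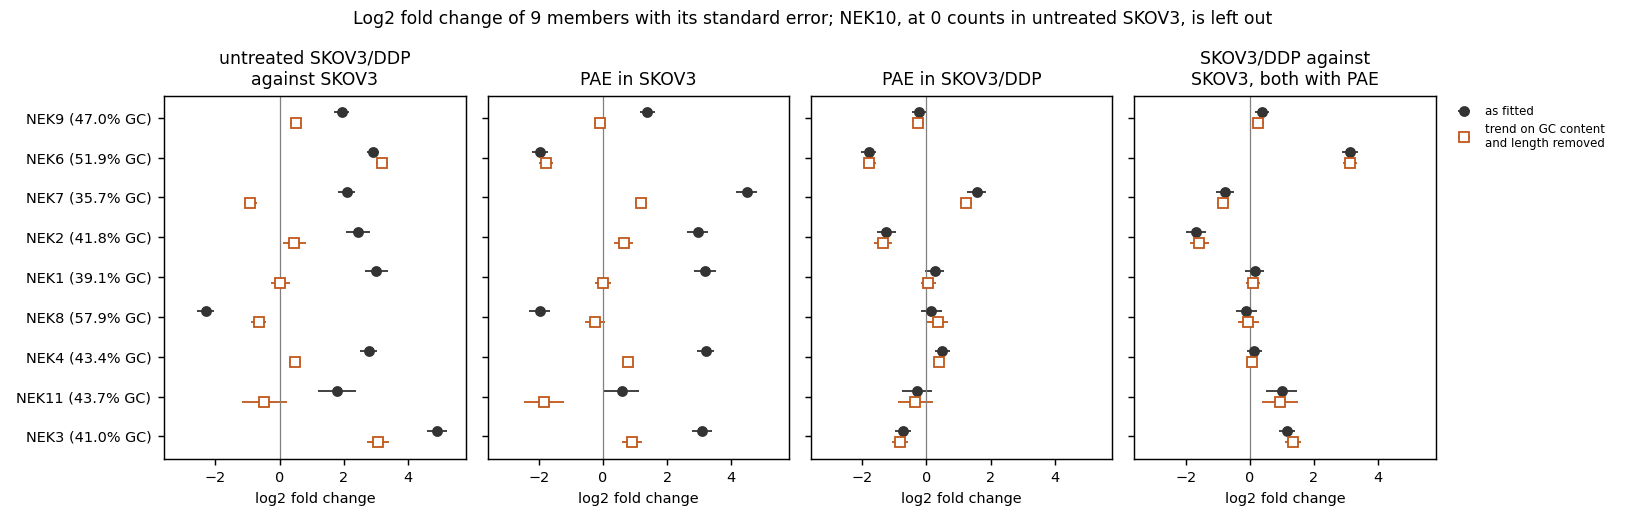
Log2 fold change of 9 NEK genes with its standard error in 4 comparisons, as fitted (filled circles) and trend-removed (open squares); NEK10, at 0 counts in untreated SKOV3, is not drawn. Except for NEK6, the values part in the left pair of panels, which compare a group with untreated SKOV3. They lie closer together in the right pair, which compare other groups.

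The partners of the NEK9, NEK6 and NEK7 cascade were read from a list of 14 upstream kinases, substrates and binding partners. With PAE in SKOV3/DDP, 5 of the 13 tested fell and the other 8 were not called (14.7% of all genes were called lower), with a median of −0.98 beside 0 for all genes tested: CDK1 (−1.53 ± 0.32, adjusted p = 0.00361), AURKA (−1.29 ± 0.32, adjusted p = 0.00957), KIF11 (−1.16 ± 0.39, adjusted p = 0.0405), TPX2 (−1.08 ± 0.36, adjusted p = 0.0361) and PLK1 (−1.03 ± 0.32, adjusted p = 0.0267). CDK1 and PLK1 act upstream of NEK9, AURKA and its activator TPX2 build the spindle, and KIF11 is the substrate of NEK6 and NEK7. CDK1 was at 111, 47.3 and 112 CPM untreated and 28.2, 30.0 and 35.6 CPM with PAE, and replicate 2 of untreated SKOV3/DDP was lowest of its group for each of these 5 genes and for NEK2. Leaving out 1 library of SKOV3/DDP at a time, 5 were called lower without untreated replicate 2, 3 without PAE replicate 3, 2 without untreated replicate 3 or PAE replicate 1 or 2, and 1 without untreated replicate 1. The shares of all genes in those fits are not given here. Scaled by library size only, 2 were called lower and 1 higher, against 11.2% and 16.9% of all genes. Trend-removed, 4 were lower (PLK1 had an adjusted p of 0.0636) and BICD2, a dynein adaptor, was higher (0.61, adjusted p = 0.0208), against 16.5% and 15.4% of all genes.

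In SKOV3 with PAE, 9 of the 13 partners rose and 3 fell as fitted (42.6% and 32.7% of all genes), and 8 rose and none fell trend-removed (28.4% and 21.7% of all genes). NEDD1 (4.26 ± 0.39, trend-removed 1.15) and HAUS6 (4.05 ± 0.38, trend-removed 0.92), which recruit and build on the gamma-tubulin ring, were called higher in both fits. DYNLL1, a dynein light chain that binds NEK9, was called lower as fitted (−1.31 ± 0.24) and had 0.42 trend-removed (adjusted p = 0.0999). TUBG1, gamma-tubulin itself, was called lower as fitted (−1.27 ± 0.25) and higher trend-removed (0.86). PLK1 was at 474, 383 and 499 CPM untreated and 45.3, 81.4 and 79.5 CPM with PAE, and the groups did not overlap. Its log2 fold change was −2.72 ± 0.33 as fitted and −0.70 trend-removed (adjusted p = 0.0763). Of the other partners that fell in SKOV3/DDP, KIF11 rose in both fits (3.91 ± 0.44, trend-removed 0.92 with adjusted p = 0.0371). CDK1 (2.97 ± 0.34), TPX2 (1.74) and AURKA (1.18) rose as fitted, and trend-removed they had 0.013, 0.66 and 0.14 with adjusted p of 0.991, 0.0888 and 0.715.

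With PAE in both lines, 8 of the 13 partners were lower in SKOV3/DDP and the other 5 were not called (27.1% of all genes were called lower). One of the 8 was RGCC, a regulator of CDK1, with 6.97, 0.965 and 0.526 CPM in SKOV3 and 0.188 CPM or less in SKOV3/DDP. At these counts (149 and 6 over the groups), and with 1 library well above the other two, its fold is no measure of size. PLK1 (−2.52 ± 0.33), CDK1 (−2.27 ± 0.33), AURKA (−2.17 ± 0.33), KIF11 (−2.07 ± 0.40) and TPX2 (−1.82 ± 0.36) were among them, while NEK6 itself was higher there. Between the untreated lines 7 of 12 were higher and 3 lower as fitted (46.1% and 38.5% of all genes), and 4 and 1 trend-removed (37.0% and 32.6%). HAUS6 (3.86 ± 0.42, trend-removed 0.98) and the chaperone HSPA8 (3.06 ± 0.35, trend-removed 2.60) were higher in both fits, PLK1 was lower in both (−4.27 ± 0.36, trend-removed −2.24), and TUBG1 was lower as fitted (−2.37 ± 0.18, trend-removed −0.25). NLRP3, the inflammasome partner of NEK7, stayed at or below 0.568 CPM in every library and was not tested. The PAE effect on the list differed between the lines in 13 of 13 genes as fitted (3 higher and 10 lower, against 25.5% and 37.4% of all genes), and in 9 trend-removed, all 9 lower in SKOV3/DDP (22.8% of all genes). KIF11 (−5.07 ± 0.59, trend-removed −2.30) and CDK1 (−4.50 ± 0.47, trend-removed −1.79) were among those lower in both fits, and of those higher as fitted, PLK1 (1.69 ± 0.44) and DYNLL1 (1.36 ± 0.34) had −0.13 and −0.26 trend-removed.

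**Figure D5:**
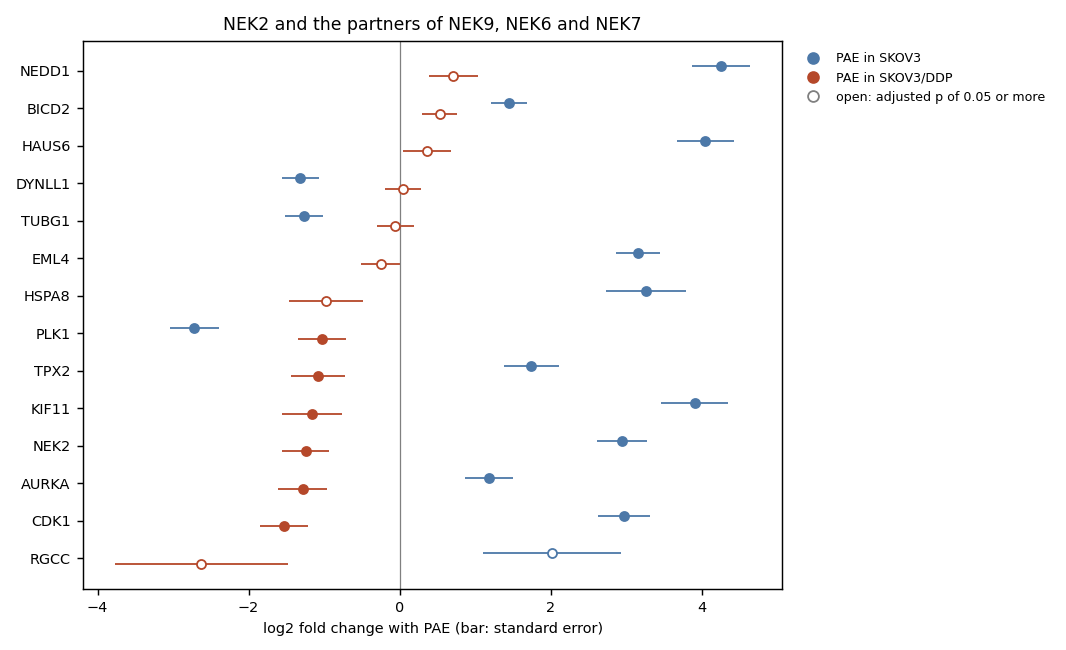
Log2 fold change with PAE (bar: standard error) of NEK2 and 13 partners of NEK9, NEK6 and NEK7, in SKOV3 (blue) and SKOV3/DDP (red); filled points had an adjusted p under 0.05. CDK1, AURKA, KIF11, TPX2, PLK1 and NEK2 lie below 0 in SKOV3/DDP, and all of these but PLK1 lie above 0 in SKOV3 as fitted, where CDK1, AURKA, TPX2 and NEK2 did not pass the test trend-removed.

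Of 13 partners of NEK2 at the centrosome linker and the kinetochore, 3 fell with PAE in SKOV3/DDP and the other 10 were not called, against 14.7% of all genes called lower. They were LRRC45 (−1.63 ± 0.24, adjusted p = 0.000388) and CNTLN (−0.87 ± 0.29, adjusted p = 0.0367), proteins of the linker, and NDC80 (−1.22 ± 0.32, adjusted p = 0.0120), the kinetochore protein that binds microtubules. The median of the list was −0.03. Without replicate 1 of untreated SKOV3/DDP, 1 of the 13 was called. PAE in SKOV3 raised 8 and lowered 3 as fitted (42.6% and 32.7% of all genes), and 5 and 1 trend-removed (28.4% and 21.7%). NDC80 (4.22 ± 0.37, trend-removed 2.04) rose in both fits, CEP44 (4.05 ± 0.40) rose as fitted, and LRRC45 (−2.81 ± 0.25) and MAD1L1, a spindle checkpoint protein (−2.53 ± 0.22), fell as fitted. These last 3 had 0.64, −0.18 and −0.20 trend-removed and did not pass the test there. Between the untreated lines 8 were higher and 4 lower (7 and 1 trend-removed), against 46.1% and 38.5% of all genes (37.0% and 32.6% trend-removed). As fitted, the higher ones were led by CEP44 (4.41 ± 0.49, trend-removed 1.26) and PPP1CC, a subunit of the phosphatase that opposes NEK2 (3.79 ± 0.18, trend-removed 2.06). The lower ones were led by LRRC45 (−2.47 ± 0.18) and MAD1L1 (−1.57 ± 0.17). Trend-removed, LRRC45 was not called (−0.095, adjusted p = 0.618) and MAD1L1 was called higher (0.55, adjusted p = 0.0108). With PAE in both lines 3 were higher and 4 lower (27.5% and 27.1% of all genes), led by CEP44 (1.18 ± 0.33) and MAD1L1 (1.00 ± 0.21), and by NDC80 (−2.23 ± 0.33) and CNTLN (−1.31 ± 0.29). The PAE effect differed between the lines for 10 as fitted (3 higher and 7 lower) and for 7 trend-removed (1 and 6), against 25.5% and 37.4% of all genes as fitted and 18.9% and 22.8% trend-removed, with NDC80 (−5.44 ± 0.48, trend-removed −3.38) the furthest from 0.

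Of 6 tested partners of NEK8 and NEK1 in cilia, INVS alone was called with PAE in SKOV3/DDP (−0.71 ± 0.24, adjusted p = 0.0424), and no call was left when any library of that line was left out. Of all genes, 14.7% were called lower in that comparison. Given PAE in SKOV3, 3 rose and 2 fell as fitted, and 2 and 2 trend-removed, beside the same shares of all genes as for the NEK2 partners. ANKS6, which binds NEK8, fell in both fits (−1.28 ± 0.19, trend-removed −0.64). CFAP410, which binds NEK1, fell as fitted (−2.96) and did not pass the test trend-removed (−0.41, adjusted p = 0.175). CFAP410, which binds NEK1, was lower in untreated SKOV3/DDP (−3.70 ± 0.19, trend-removed −1.45), with 3 members of the list higher and 2 lower in all. KIF3A, a motor subunit of ciliary transport, was higher in SKOV3/DDP than in SKOV3 with PAE in both lines (0.94 ± 0.23, adjusted p = 0.00287), and CFAP410 (−1.05 ± 0.24) was lower. As for the PAE effect, it differed between the lines for 5 of the 6 as fitted (2 higher and 3 lower) and for 3 trend-removed (1 and 2). The shares of all genes were 25.5% higher and 37.4% lower as fitted, and 18.9% and 22.8% trend-removed.

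FOXO3, FBXW7 and MYC were followed because the study links them to NEK6, so they are no independent choice. The study places FOXO3 and MYC in this link as proteins, through phosphorylation and location of FOXO3 and stability of MYC. It also reports that FOXO3 activates transcription of FBXW7, a step read partly as FBXW7 RNA. Only RNA was measured here, and neither NEK6 nor FOXO3 was altered directly, so these values test neither that link nor that step. FOXO3, a transcription factor, was at 33.9, 36.9 and 34.1 CPM in untreated SKOV3/DDP and 63.4, 58.4 and 83.3 CPM with PAE, a rise of 0.97 ± 0.30 (adjusted p = 0.0260, trend-removed 0.95). FBXW7, the ubiquitin ligase subunit that recognises MYC, had 0.62 ± 0.27 (adjusted p = 0.0963, trend-removed 0.61 with adjusted p = 0.0488). In SKOV3 with PAE, FBXW7 rose by 2.63 ± 0.30 (trend-removed 0.93) and FOXO3 by 2.60 ± 0.32 (trend-removed 1.62). MYC was not called with PAE in SKOV3/DDP (−0.23 ± 0.34, adjusted p = 0.657), was not called in SKOV3 as fitted (0.31 ± 0.34, adjusted p = 0.421) and was called higher there trend-removed (1.07, adjusted p = 0.0145). In the comparison of the lines under PAE, where NEK6 was higher in SKOV3/DDP, MYC was lower (−1.54 ± 0.34, adjusted p = 0.00154, trend-removed −1.53), FBXW7 was higher (1.39 ± 0.27, adjusted p = 0.000502, trend-removed 1.32) and FOXO3 was not called (0.50 ± 0.29, adjusted p = 0.166). MYC was also lower between the untreated lines as fitted (−1.06 ± 0.29, trend-removed −0.27 with adjusted p = 0.369), and FBXW7 (3.35 ± 0.36, trend-removed 1.71) and FOXO3 (2.08 ± 0.35, trend-removed 1.06) were higher in both fits.

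Across the 12 libraries, and over 10110 protein-coding genes, TJP3 (Pearson's r 0.986) and KCNQ1 (0.986) were among the 3 whose log2 CPM followed NEK6 most closely. TJP3, a tight junction protein, averaged 3.39 CPM in untreated SKOV3, 1.21 after PAE, 29.4 in untreated SKOV3/DDP and 8.38 after PAE. Among the 3 nearest to NEK7 were DNA2 (0.988) and CNOT6L (0.987), and the 3 nearest to NEK9 were ERLIN2 (0.990), MDN1 (0.988) and WWP1 (0.987). The libraries of a group share their line, treatment and trend on GC content, and the genes named for NEK6 had 63.2% and 63.7% GC while those named for NEK7 had 36.3% and 37.6%, so these correlations describe the pattern over the groups and no more.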

How the data were processed

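Poly-A RNA of 12 libraries was sequenced, and each deposited file holds the raw whole-number counts of 1 library on GRCh38, which the authors did not normalize. The submitters' processing notes name HISAT2 2.0.5, StringTie 1.3.3b, DESeq2 and edgeR, with no role. The counting program, its strand setting and the annotation release are not given in the sources used here. A further 869 loci without a gene name (0.126% to 0.678% of counts) were left out. Totals ranged from 14610008 to 18263479 counts (median 16260043).

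The counts were analysed in R 4.3.3 with edgeR 4.0.16: filterByExpr, TMM factors, the quasi-likelihood test and Benjamini-Hochberg adjustment at 0.05 over all genes. The untreated lines were compared in a fit of 6 libraries (15323 genes), and all else in a fit of 12 libraries with 4 groups (17133 genes). The study's methods name limma and, with its public tumour data, a normalize function, and apply the same criteria to these data. A test for counts was used here instead. Standard errors were computed as |log2 fold change| over the root of F. GC content came from GENCODE 29 (91.5% of genes), and its trend was fitted with splines of 5 degrees of freedom on GC content and length, using genes above a mean log2 CPM of 2, and passed to the fit as offsets. Ratios were compared by exact permutation. Alternatives were library size only, DESeq2 1.42.0, limma-voom (limma 3.58.1), no filter, at least 10 counts in every library, a replicate block, a pseudocount of 5, other sets of libraries and each library left out. Their use on the partner lists was added after seeing the data. The fits were checked on simulated counts.

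All 10 members are named and, per partner list and comparison, up to 2 called genes of each sign with the largest change; further partner genes were chosen after their values were seen. A few genes that this rule or the ranking of similar genes would name are not reported here. The members and lists were chosen with earlier results of these data known. Promoters came from RefSeq (GRCh38.p14). NEK7, AURKA and TPX2 had no promoter entry. Replicates were not duplicates of one another.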

Additional observations from a re-analysis of the deposited data

Results flagged for a closer look

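The effect of PAE differed between the lines, by the interaction term of edgeR's quasi-likelihood test, for 8 of the 10 members. Most genes differed too: 25.5% of all genes were called higher and 37.4% lower in that term (18.9% and 22.8% trend-removed). Each value is the log2 effect in SKOV3/DDP minus that in SKOV3, and all rest on the untreated SKOV3 libraries. It was −4.19 for NEK2 and −3.81 for NEK3, which rose in SKOV3 and fell in SKOV3/DDP, and trend-removed these were −1.99 and −1.73, still past the threshold. It was −6.65 for NEK10, a fitted value against a group with 0 counts and so no measure of size. It was −2.91 for NEK7, −2.92 for NEK1, −2.71 for NEK4, −1.61 for NEK9 and 2.13 for NEK8, and trend-removed these 5 were 0.061, 0.064, −0.37, −0.16 and 0.61, none past the threshold. The part of the GC trend of the untreated SKOV3 libraries in these differences was not tested beyond this.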

How the results depend on the processing

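With DESeq2 and with limma-voom, all 50 member results (10 members in 5 comparisons) kept their direction and their side of the threshold. With the GC and length trend removed, 32 did so, 8 kept their direction but were no longer called, and 10 changed sign. Of those that changed sign, NEK11 between the untreated lines and NEK9 and NEK1 with PAE in SKOV3 also lost their call. So did NEK7 and NEK1 for the difference between the lines, while NEK11 with PAE in SKOV3 gained a call. The members called were then 4 higher and 2 lower between the untreated lines, 4 higher with PAE in SKOV3, and 0 higher and 3 lower for the difference between the lines. Of all genes in that fit, 37.0% were higher and 32.6% lower between the untreated lines. The shares were 28.4% higher with PAE in SKOV3, and 18.9% higher and 22.8% lower for the difference between the lines. Changed in sign were NEK7 (−0.91) and NEK11 (−0.47) between the untreated lines, NEK9 (−0.094), NEK1 (−0.0047) and NEK11 (−1.85) with PAE in SKOV3, NEK10 (−0.0076) with PAE in SKOV3/DDP, and NEK6 (−0.010), NEK7 (0.061), NEK1 (0.064) and NEK11 (1.502) for the difference between the lines. The trend-removed NEK6 to NEK7 ratio was 4.03 between the untreated lines, −2.96 with PAE in SKOV3 and −3.01 in SKOV3/DDP, and that of NEK9 to NEK7 was 1.34 (reversed), −1.27 and −1.48. The cause was not tested.

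Scaling by library size only moved the median of all genes from 0.41 to 1.16 between the untreated lines, from 0.48 to 1.35 with PAE in SKOV3 and from 0 to 0.16 in SKOV3/DDP. It called 2 members higher with PAE in SKOV3/DDP (NEK7 and NEK4), against 16.9% of all genes, and NEK11 higher with PAE in SKOV3 (1.46, adjusted p = 0.0193). With that scaling the call of NEK3 with PAE in SKOV3/DDP was lost (−0.56, adjusted p = 0.112), and the difference of NEK6 between the lines was −0.57. With at least 10 counts in every library, 1 member was called higher in SKOV3/DDP with PAE in both lines (26.7% of all genes), since NEK3 was among the genes that filter removed.

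Same-numbered libraries did not deviate together (correlations −0.151 to 0.111), so they were treated as unpaired. With a replicate block, NEK10 with PAE in SKOV3/DDP was −0.013 and NEK3 there was no longer called (−0.73, adjusted p = 0.0695), and the other 48 member results kept their direction and call.

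Leaving out 1 library at a time, 1 to 2 members were called lower with PAE in SKOV3/DDP, against 3 with all libraries, and 1 to 2 were called lower in SKOV3/DDP with PAE in both lines. NEK6 ranged from −0.048 to 0.32 for the difference between the lines, NEK10 from −0.18 to 0.28 with PAE in SKOV3/DDP, and NEK8 from −0.29 to 0.17, NEK1 from −0.066 to 0.29 and NEK4 from −0.081 to 0.25 with PAE in both lines. NEK6 kept its calls throughout, with log2 values of 2.85 to 3.01 between the untreated lines, −2.10 to −1.73 with PAE in SKOV3, −1.93 to −1.65 in SKOV3/DDP and 2.88 to 3.25 with PAE in both lines. Counts limit NEK10 and NEK11, with 188 and 450 over all libraries. The order of the shares per kb changed with the longest transcript as length, as given with the shares.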
